A study of Mus musculus with 20 samples.

Results

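The transcription factors and nuclear receptors that set the gene program of hepatocytes were followed through colorectal liver metastasis (CRLM) in the mouse. The 9 genes were taken by symbol (Hnf4a, Foxa1, Foxa2, Foxa3, Cebpa, Nr1h4, Nr1i2, Nr1i3 and Ppara), each matching 1 of the 54532 genes in the count tables. All 9 passed the filter on low counts in the tissue libraries. Bulk RNA-Sequencing covered tumor-centric liver samples with a rising content of tumor, and cells sorted from metastases of medium tumor content. The question put to these genes was how far they fell as metastasis replaced liver, and whether they fell by more or less than Alb, which encodes serum albumin, the main secreted protein of hepatocytes.

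The mice were labelled as wild type (WT), and con was liver of mice given normal saline (day 0, n = 2). All other groups came from mice that received 1000000 MC38 cells, a syngeneic colon carcinoma line written Mc38 by the study and injected through the spleen into the portal circulation. L-con was tumor-free liver remote from the tumor (day 12, a single library). Lt held a low content of tumor (day 9, n = 2), Mt3 (day 9), Mt2 and Mt1 (both day 11) a medium content (n = 2 each), and Ht a high content (day 12). The study's methods describe Ht samples as mostly tumor, with a remainder of other tissue possible. F4/80+ and CD11b+ cells (day 11, 3 libraries each) were selected from Mt2 metastases with magnetic microbeads. Tissue samples were labelled male, whereas the methods name female C57BL/6 mice aged 6 to 8 weeks. The methods state that 2 livers were prepared for each group apart from L-con and that Ht aliquots 1 and 3 were made identical, so these were summed and Ht counted as 2 samples. Nothing ties a sorted library to an animal, and p-values measure only the spread between the samples deposited. Day and tumor content were separated only in part, since Lt and Mt3 shared day 9 and L-con and Ht shared day 12, while con stood alone at day 0.

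Hepatocyte identity rests on a small network of factors that bind each other's promoters as well as those of the genes for albumin, clotting factors, bile acid synthesis and drug metabolism. HNF4A is a nuclear receptor that activates much of this program, the FOXA proteins are forkhead pioneer factors that open liver enhancers, and C/EBP alpha drives metabolic genes in hepatocytes but is also a master factor of granulocytes and monocytes. Nr1h4 encodes FXR, the receptor for bile acids, Nr1i2 and Nr1i3 encode PXR and CAR, the receptors that sense drugs and other foreign compounds, and Ppara encodes PPAR alpha, the receptor that switches on fatty acid oxidation in fasting. FXR, PXR, CAR and PPAR alpha all pair with RXR alpha, the product of Rxra.

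The genes lie on 7 chromosomes of GRCm38 and are given here with the identifiers and positions of the deposited annotation. Hnf4a (ENSMUSG00000017950) lies at chr2:163506808-163572910 and Foxa2 (ENSMUSG00000037025) at chr2:148042877-148046969. Foxa3 (ENSMUSG00000040891) at chr7:19013284-19023538 shares its chromosome with Cebpa (ENSMUSG00000034957) at chr7:35119293-35121928. Foxa1 (ENSMUSG00000035451) is at chr12:57540628-57546916, Nr1h4 (ENSMUSG00000047638) at chr10:89454234-89533585 and Nr1i2 (ENSMUSG00000022809) at chr16:38248323-38294824. Nr1i3 (ENSMUSG00000005677) is at chr1:171213970-171220701 and Ppara (ENSMUSG00000022383) at chr15:85734983-85802819. Nr1i3 shares 3304 of its 4414 exonic bases with Tomm40l on the opposite strand, and since the library kit does not mark strand, its counts are uncertain. Cebpa shares 51 of 2636 exonic bases with the antisense gene Gm45091, whose count never exceeded 20 in a library.

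The 250 bases before the RefSeq transcription starts (GRCm38.p6) of the members and of Alb were read for the letters of liver factor sites. Whether such sites bear on the levels was not tested. RefSeq listed 12 starts for the 9 members, with 2 for Hnf4a and 3 for Foxa2. In all, 6 motifs were searched on both strands: an HNF4 element (CAAAGTCCA), a nuclear receptor half-site (AGGTCA), a forkhead element (TGTTTAC), the element GTTAAT, a C/EBP element (TTGCNNAA) and a TATA element (TATAAA). Some of the sequences that hold such an element are printed 5′ to 3′ on the strand of the gene with the matched letters in capitals, and Cebpa is shown because its level went apart from the others.
Hnf4a, downstream start, chr2:163546905-163547154, plus strand: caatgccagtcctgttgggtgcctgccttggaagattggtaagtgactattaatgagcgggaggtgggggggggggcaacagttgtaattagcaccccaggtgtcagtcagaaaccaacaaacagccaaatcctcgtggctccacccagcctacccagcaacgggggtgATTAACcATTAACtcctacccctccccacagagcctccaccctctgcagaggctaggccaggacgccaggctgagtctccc
Nr1h4, chr10:89506659-89506908, minus strand: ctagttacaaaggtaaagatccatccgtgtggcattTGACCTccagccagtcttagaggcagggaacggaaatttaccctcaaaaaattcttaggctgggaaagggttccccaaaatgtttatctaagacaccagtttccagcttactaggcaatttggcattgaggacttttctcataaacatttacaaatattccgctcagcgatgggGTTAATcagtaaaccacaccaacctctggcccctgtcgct
Foxa1, chr12:57546112-57546361, minus strand: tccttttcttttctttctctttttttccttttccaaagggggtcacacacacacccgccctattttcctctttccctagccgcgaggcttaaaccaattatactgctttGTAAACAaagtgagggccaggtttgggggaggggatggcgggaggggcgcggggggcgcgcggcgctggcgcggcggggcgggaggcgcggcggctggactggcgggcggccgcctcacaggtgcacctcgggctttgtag
Cebpa, chr7:35119043-35119292, plus strand: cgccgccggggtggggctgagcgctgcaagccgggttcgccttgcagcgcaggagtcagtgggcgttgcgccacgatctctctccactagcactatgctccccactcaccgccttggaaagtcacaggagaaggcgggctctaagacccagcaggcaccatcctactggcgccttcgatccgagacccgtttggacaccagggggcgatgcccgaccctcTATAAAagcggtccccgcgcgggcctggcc
Alb, chr5:90460620-90460869, plus strand: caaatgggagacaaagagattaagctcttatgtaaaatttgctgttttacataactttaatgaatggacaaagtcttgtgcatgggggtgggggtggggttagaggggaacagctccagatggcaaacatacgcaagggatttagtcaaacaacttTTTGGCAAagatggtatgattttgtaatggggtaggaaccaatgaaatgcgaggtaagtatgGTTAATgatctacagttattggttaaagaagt

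The downstream start of Hnf4a carried the element GTTAAT in tandem, with first bases 81 and 74 before the start. The element GTTAAT also lay 40 bases before the start of Nr1h4 and 32 bases before that of Alb. Such an element was held by 6.43% of the 32851 promoters in the table. The Nr1h4 promoter also held a nuclear receptor half-site 214 bases before its start (14.0% of all promoters), and that of Foxa1 a forkhead element 141 bases before it (3.17%). In the Alb promoter a C/EBP element stood 94 bases before the start (9.56%). A TATA element (12.4%) stood 30 bases before the start of Cebpa and 36 before that of Foxa3. The most downstream start of Foxa2 held the element GTTAAT and a TATA element. No promoter of the members held the HNF4 element, which occurred in 0.384% of all promoters, and 6 of the 12 held none of the 6 motifs.

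The 14 tissue libraries held 16032085 to 18246623 counts and the 6 sorted libraries 17785496 to 20548370. On these totals, 3 counts stood for at most 0.187 CPM (counts scaled to 1000000 per library). Levels are CPM after TMM scaling, which adjusts each library for its makeup and so shifts this limit. The second libraries of Mt2 and Mt1 stood apart from the first of their group, with all 9 members lower in each, by a median of 4.28-fold in Mt2 and 2.29-fold in Mt1, against 1.24-fold in con. Summed macrophage markers (8 genes, 7 of them called higher from con to Ht) lay at 394 to 613 CPM in con and 2748 to 2782 CPM in Ht. The 5 cell cycle markers summed to 8.85 to 14.1 CPM in con and 831 to 851 CPM in Ht. The 13 hepatocyte secreted protein genes summed to 159650 to 191105 CPM in con and 3730 to 5294 CPM in Ht. Of the other marker lists, 5 of 7 endothelial genes were called lower and, of 7 stellate and fibroblast genes, 3 lower and 3 higher from con to Ht. Of 7 bile duct markers, 1 was lower and 1 higher. Of 7 granulocyte markers, 6 were tested and 2 were called higher. In this step 24.1% of all genes were called lower and 25.8% higher. Of 9 colon epithelium markers, Cdx1, Cdx2 and Krt20 were at or under 3 counts in both con and Ht, and 4 of the 6 tested were called lower from con to Ht, with list sums of 520 to 567 CPM in con and 112 to 213 CPM in Ht. In such bulk samples, fewer hepatocytes and less RNA per hepatocyte cannot be told apart.

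In con liver, the members spanned a wide range of levels per length. Cebpa (316 and 362 CPM per kilobase of transcript) and Hnf4a (302 and 282) were the highest, and their ranges did not overlap although they lay close together. Nr1h4 (61.0 and 72.3) followed, then Nr1i2 (58.6 and 47.2), Foxa3 (51.1 and 51.5) and Ppara (37.9 and 54.0). The ranges of the last 3 overlapped, so that their order was not resolved. Foxa2 (15.9 and 21.9), Foxa1 (8.38 and 11.4) and Nr1i3 (3.11 and 6.50) were the lowest, without overlap between neighbours. The value of Nr1i3 carries the uncertainty of the exons it shares with Tomm40l.

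Hnf4a stood at 1459 and 1360 CPM in con and at 1329 CPM in L-con. The Lt libraries held 1096 and 816 CPM, Mt3 held 893 and 871, Mt2 held 938 and 209, and Mt1 held 493 and 189. In Ht it was at 21.8 and 43.2 CPM. The Lt libraries lay below both con libraries, the Mt libraries overlapped Lt, and both Ht libraries lay below every other sample.

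The 3 FOXA genes did not run in parallel. Foxa2 was the only member with both Lt libraries (63.6 and 59.6 CPM) above con (37.7 and 51.9 CPM), and L-con was higher still at 107.5 CPM. Its level was 22.7 and 57.5 CPM for Mt3, 33.5 and 5.65 for Mt2, 13.7 and 6.25 for Mt1, and 0.708 and 1.01 for Ht. The Mt libraries of Foxa2 all lay below Lt but overlapped con.

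Foxa1 was at 27.9 and 38.0 CPM in con, while L-con had 46.6 and Lt 34.0 and 25.05. Mt3 had 16.8 and 25.8 CPM, Mt2 24.8 and 4.52, Mt1 11.5 and 5.0, and Ht 0.839 and 1.64. Foxa3 was steadiest at the start, with 104.0 and 105.0 CPM in con, a value of 110.4 for L-con, and 111.5 and 72.7 for Lt. It went to 86.3 and 68.6 CPM (Mt3), then 82.7 and 20.5 (Mt2), 54.2 and 18.0 (Mt1), and 2.93 and 4.39 (Ht). For both genes Lt overlapped con, all 6 Mt libraries lay below con, and Ht lay below Mt.

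Cebpa was at 833 and 955 CPM in con, with 1001 for L-con and 671 and 555 for Lt. The Mt3 libraries gave 441 and 547 CPM, those of Mt2 487 and 114, those of Mt1 194 and 129, and those of Ht 41.8 and 57.6. Each step from con to Lt and from Lt to the Mt libraries was free of overlap, and so was that to Ht. Among the 9 members Cebpa had the smallest range over the 13 tissue samples, 23.97-fold from lowest to highest, against 34.1-fold to 151.8-fold in the other members.

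Among the nuclear receptors, Nr1h4 was at 141 and 166 CPM in con, with 132 for L-con, 141 and 83.9 for Lt, and 95.5 and 98.1 for Mt3. It went on to 62.6 and 22.2 CPM (Mt2), 33.1 and 22.5 (Mt1), and 4.88 and 5.29 (Ht). Lt overlapped con, and Mt2 lay below Mt3 without overlap. Nr1i2 was at 149.5 and 120.4 CPM in con, with 99.3 for L-con, 93.2 and 61.6 for Lt, and 83.8 and 60.7 for Mt3. The Mt2 pair gave 53.7 and 18.7 CPM, the Mt1 pair 50.3 and 15.8, and the Ht pair 2.42 and 7.38. Both Lt libraries of Nr1i2 lay below con.

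Ppara was at 146 and 207 CPM in con and at 98.1 CPM in L-con. Lt had 93.0 and 62.3 CPM, Mt3 152 and 66.9, Mt2 103 and 23.7, Mt1 33.8 and 18.5, and Ht 3.21 and 4.60. Lt lay below con, while the first Mt3 library lay within the con range. Nr1i3 was at 13.7 and 28.7 CPM in con and 10.9 CPM in L-con. Lt had 17.1 and 10.4 CPM, Mt3 15.1 and 8.21, Mt2 10.6 and 4.88, Mt1 9.09 and 3.88, and Ht 0.746 and 0.870. Its con libraries differed by 2.09-fold, the widest gap between con libraries among the members, and Lt overlapped them.

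**Figure D1:**
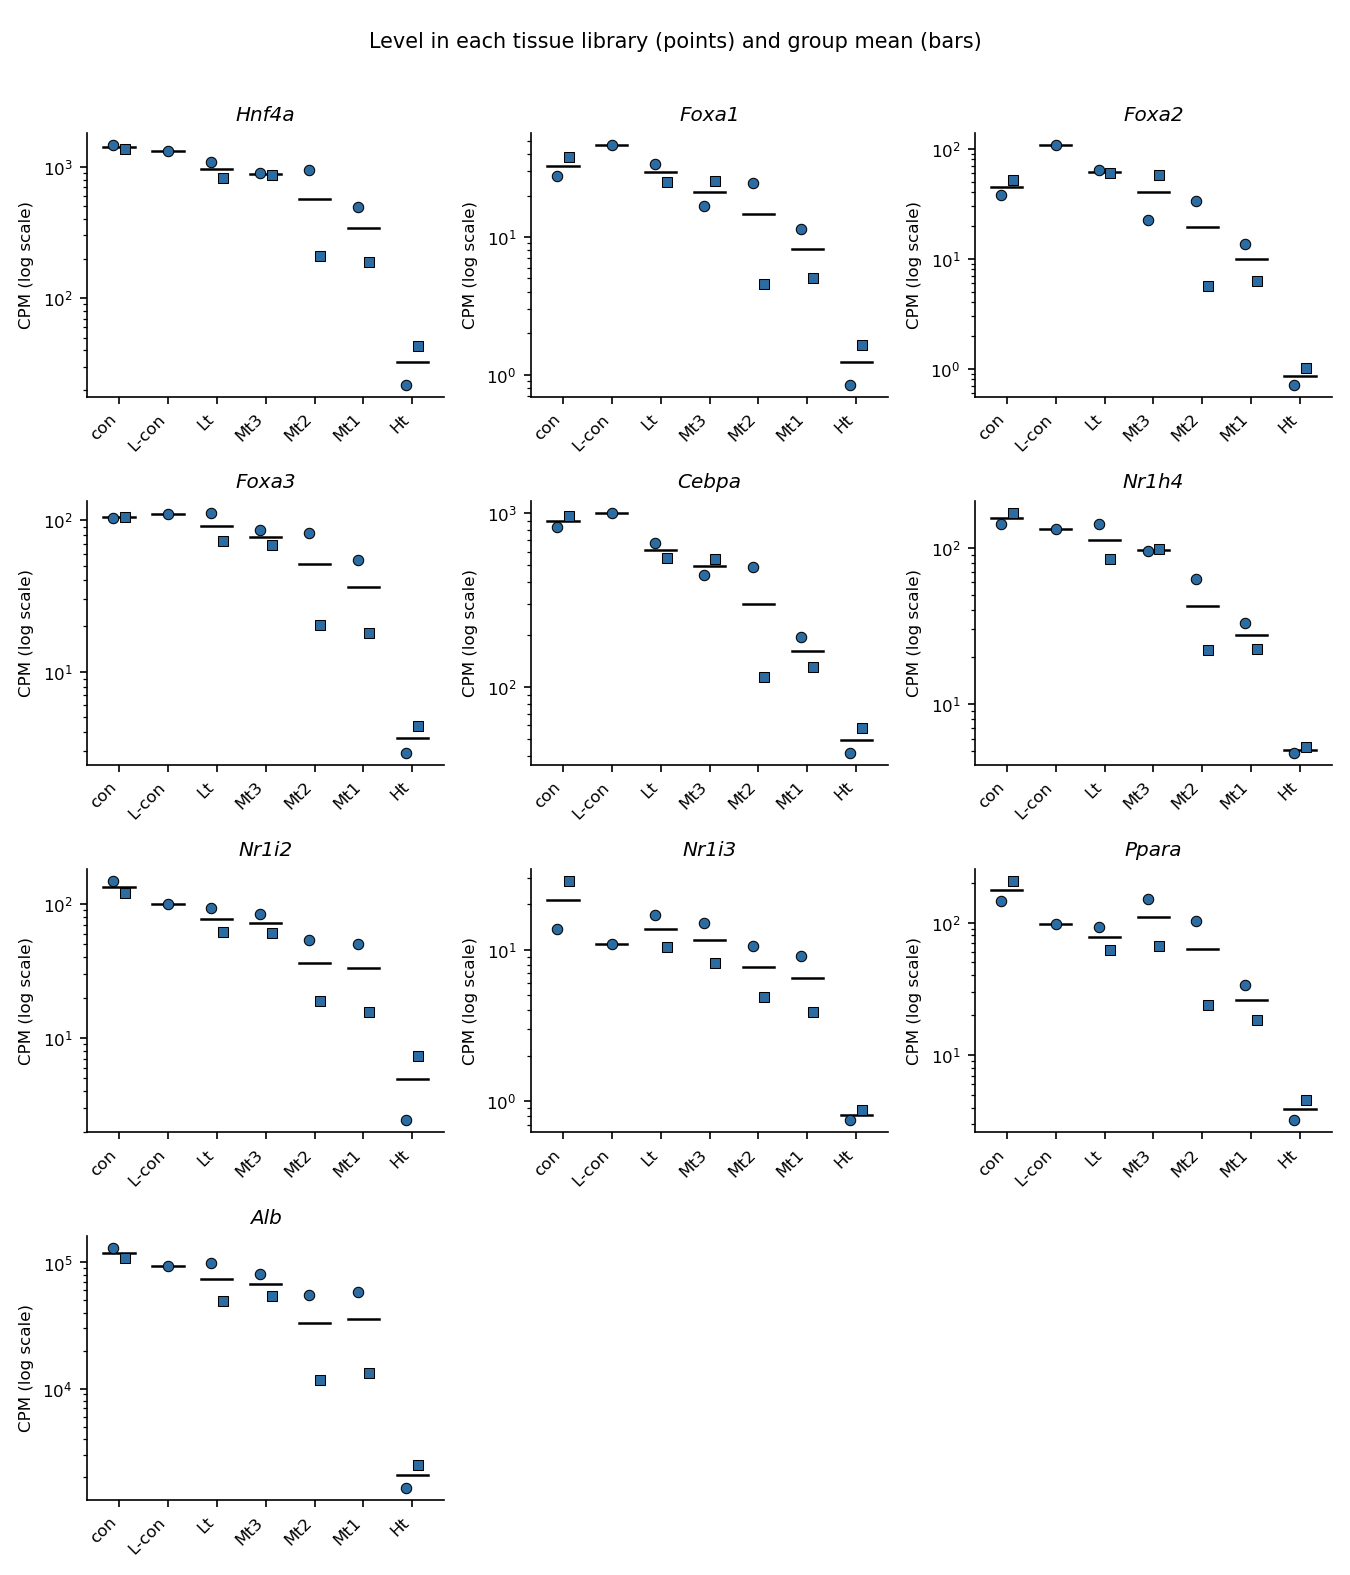
Level of each member and of Alb in CPM (log scale) in the 7 tissue groups. Circles are the first and squares the second sample of a group (a single library for L-con, aliquots 1 and 3 summed for Ht), and bars are group means. All 9 members and Alb were lowest in Ht, and the second Mt2 and Mt1 libraries lay below the first.

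Differences were tested with edgeR's quasi-likelihood test in a single fit of the 13 tissue samples and called at a Benjamini-Hochberg adjusted p of at most 0.05 over 17187 genes with at least a 2-fold change. From con to Lt, none of the 9 members was called, where 0.256% of all genes were called lower and 12.4% higher. The members' median log2 fold change was -0.55, against 0.10 over all genes, and 8 of 9 values were below 0. The lowest was Ppara at -1.18 (SE 0.64, adjusted p = 0.257), and the only value above 0 was Foxa2 at 0.46 (SE 0.71, adjusted p = 0.685). Over all genes, 4917 had an unadjusted p under 0.05 in this step, and DESeq2 called 0 of the members. In the same step 5 of 8 macrophage and 5 of 5 cell cycle markers were called higher, and their part in the members' values was not tested. Ppara was called lower by a fit of con and Lt alone (log2 fold change -1.23, adjusted p = 0.0221) and without the filter on low counts.

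From Lt to Mt, averaged over the 3 medium-content groups, no member and no gene was called (0% lower and 0% higher), although 3282 genes had an unadjusted p under 0.05 and DESeq2 called 242 genes. All 9 values were below 0, with a median of -0.81 against -0.02 over all genes. Foxa2 was lowest at -1.64 (SE 0.54, adjusted p = 0.214), followed by Nr1h4 at -1.21 (SE 0.33, adjusted p = 0.214). DESeq2 called 1 member lower, Nr1h4 (log2 fold change -1.20, adjusted p = 0.0356). Without the first Mt2 library, edgeR called 4 members lower (Foxa1, Foxa2, Cebpa and Nr1h4) among 778 of 17179 genes called.

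All 9 members fell from Mt to Ht, a step in which 13.4% of all genes were called lower and 1.5% higher. The median was -3.50 on the log2 scale, against 0.00 over all genes. Foxa2 fell most, by 4.55 (SE 0.82, adjusted p = 0.00927), then Hnf4a by 4.10 (SE 0.71, adjusted p = 0.00912), Ppara by 3.86 and Foxa3 by 3.85. Cebpa fell least, by 2.54 (SE 0.53, adjusted p = 0.0135), and the other 4 by 3.19 to 3.50. For each member both Ht samples lay below all 6 Mt libraries, a separation that was not counted over all genes. With either Ht sample left out, in a fit that takes the lone Ht sample to vary like the other groups, 0 members and 0 of all genes tested were called. Without Ht replicate 1 and without Ht replicate 2, Hnf4a was at -3.69 and -4.67, Foxa2 at -4.28 and -4.79, and Cebpa at -2.32 and -2.78. Nr1i2 moved most, to -2.58 and -4.18, and Foxa1 lay between -2.91 and -4.01 over all left-out samples.

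From con to Ht all 9 members fell, where 24.1% of all genes were called lower and 25.8% higher. The median was -4.84, against 0.09 over all genes. Foxa2 fell by 5.73 (SE 0.90, adjusted p = 0.000617), Ppara by 5.51 (SE 0.77, adjusted p = 0.000383) and Hnf4a by 5.44 (SE 0.81, adjusted p = 0.000482), a mean level of 1409 ± 70.0 CPM in con against 32.5 ± 15.1 CPM in Ht (SD, n = 2 each). Cebpa fell least again, by 4.17 (SE 0.62, adjusted p = 0.000499), and the 5 others by 4.72 to 4.91. Their order was not firm, since Nr1i2 was at -4.19 without Ht replicate 1 and -5.79 without Ht replicate 2, and Nr1i3 ran from -5.15 to -4.09 with a con sample left out, which reaches the value of Cebpa. Alb fell by 5.85 (SE 1.36, adjusted p = 0.00459). The steps shared samples (Ht or con), and their calls are not independent of each other. Scaling by total counts shifted the median over all genes by 1.28 on the log2 scale and left all 9 called lower.

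**Figure D2:**
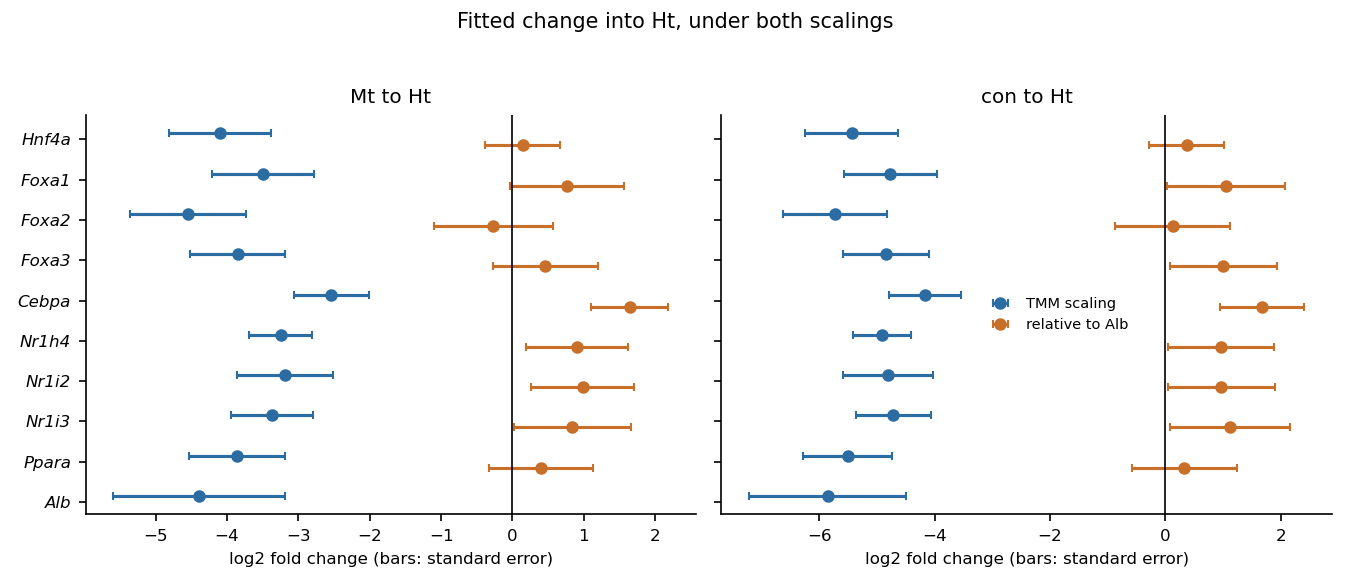
Fitted log2 fold change from Mt to Ht (left) and from con to Ht (right), with standard errors as bars, for each member under TMM scaling and relative to Alb, and for Alb under TMM scaling. All 9 members lay at -2.54 or lower under TMM scaling, and relative to Alb they lay between -0.27 and 1.68.

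The members were then set against Alb in the same libraries. Hnf4a gave 11.3 and 12.5 reads per 1000 Alb reads in con, and 13.4 and 17.3 in Ht. Over the 13 tissue samples its ratio stayed between 8.45 and 17.9, a 2.12-fold range, whereas its CPM spanned 66.9-fold. Hnf4a thus had the narrowest range of ratios of the 9 members, and Cebpa the widest at 7.73-fold.

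Foxa3 went from 0.803 and 0.965 reads per 1000 Alb reads in con to 1.80 and 1.76 in Ht. Foxa1 went from 0.215 and 0.349 to 0.516 and 0.655. Foxa2, at 0.291 and 0.477 in con and 0.435 and 0.404 in Ht, did not separate the groups, and its highest ratios were in the second Lt library (1.2), L-con (1.15) and the second Mt3 library (1.07).

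Nr1h4 went from 1.09 and 1.53 reads per 1000 Alb reads in con to 3.002 and 2.12 in Ht, and Nr1i2 from 1.15 and 1.11 to 1.49 and 2.95. Nr1i3 was at 0.106 and 0.264 in con and 0.458 and 0.348 in Ht. Ppara, at 1.12 and 1.90 in con and 1.97 and 1.84 in Ht, overlapped. Both Ht ratios lay above con in 7 of 9 members. The share of all genes separated in this way was not counted, and 91% were called higher relative to Alb in this step.

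Cebpa stood apart. It gave 6.43 and 8.78 reads per 1000 Alb reads in con, with 10.7 for L-con, 6.79 and 11.1 for Lt, and between 3.32 and 10.2 in the 6 Mt libraries (median 9.28). In Ht it gave 25.7 and 23.1, above every other tissue sample.

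**Figure D3:**
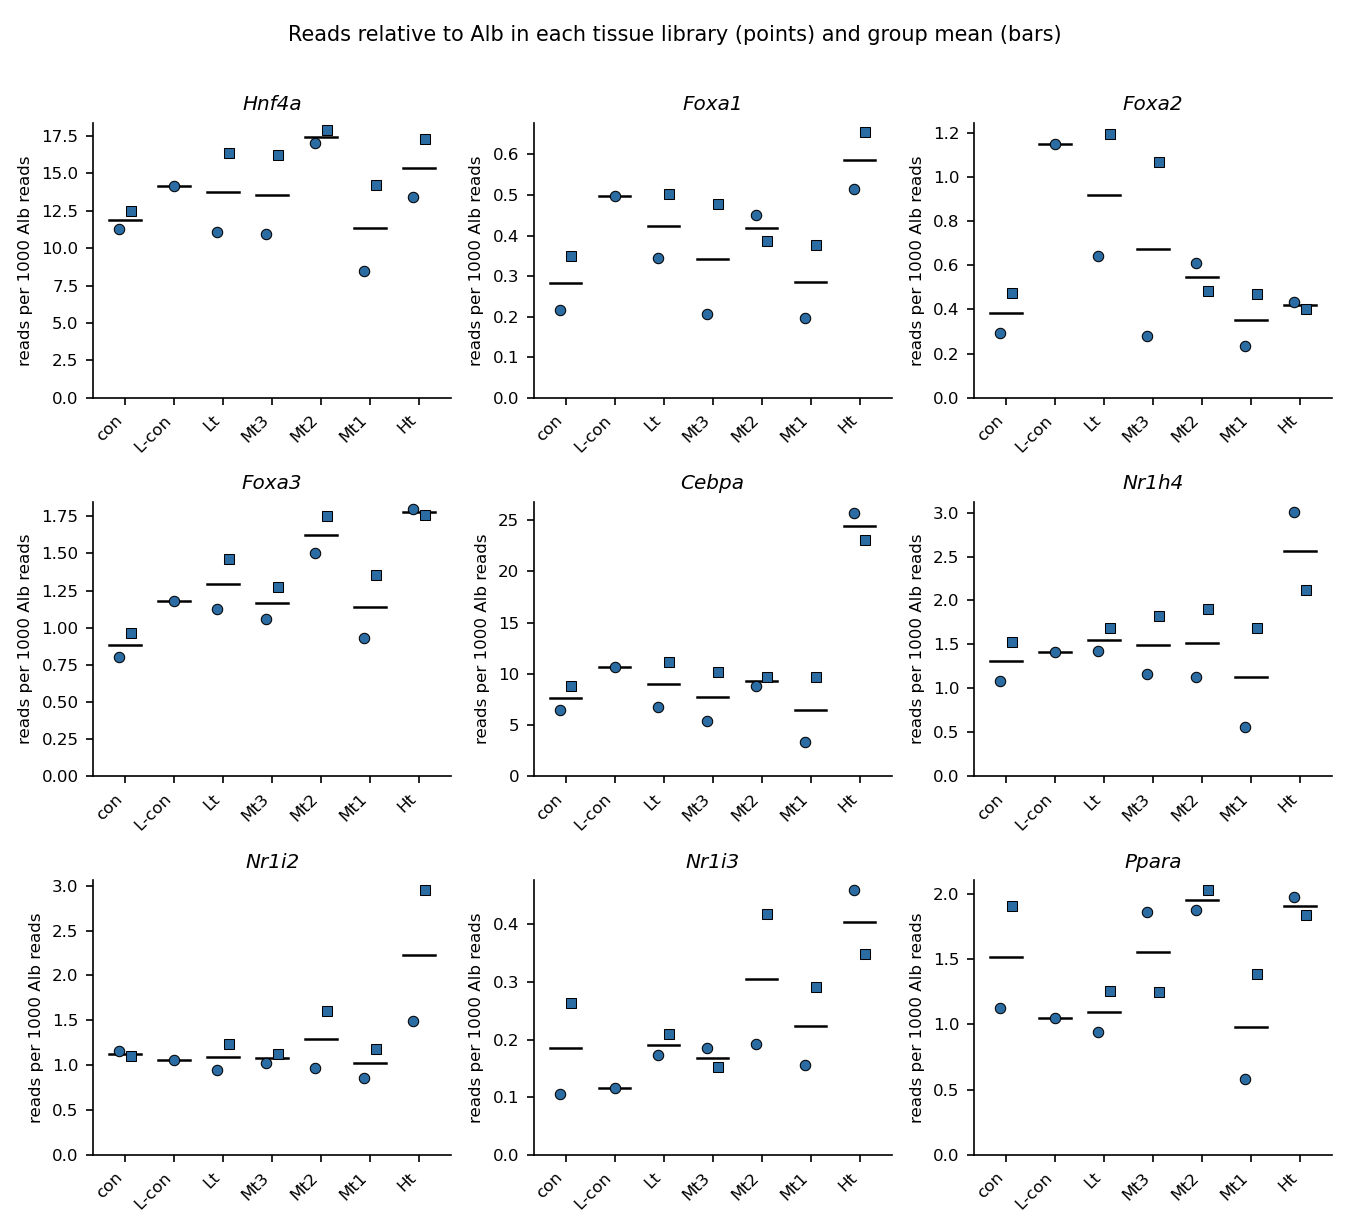
Reads of each member per 1000 Alb reads (linear scale from 0) in the 7 tissue groups. Circles are the first and squares the second sample of a group (for Ht, aliquots 1 and 3 summed), and bars are group means. Cebpa in Ht, at 25.7 and 23.1, lay above all other tissue samples, while Foxa2 and Ppara in Ht lay within or across the con range.

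With the Alb count as the offset in the same test, Cebpa was the only member called. It was higher from Mt to Ht by 1.65 (SE 0.54, adjusted p = 0.0032) and from con to Ht by 1.68 (SE 0.73, adjusted p = 0.0256), 3.20-fold. In these steps 90.8% and 91% of all genes were called higher and 0.209% and 0.279% lower, so that being called higher relative to Alb was the rule over all genes. The members' medians of 0.76 and 0.97 stood against 3.93 and 5.99 over all genes. Hnf4a differed least from con to Ht apart from Foxa2 and Ppara, by 0.37 (SE 0.65, adjusted p = 0.582). From con to Lt, 0 of 9 members were called (0.0175% of all genes lower, 6.34% higher, 2950 at an unadjusted p under 0.05, and 0 members by DESeq2). From Lt to Mt, 0 members and 0 genes were called (1509 genes at an unadjusted p under 0.05, 0 by DESeq2).

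The Mt to Ht call on Cebpa held relative to the summed count of the 12 other secreted protein genes (1.14, adjusted p = 0.00785) and with any sample left out (1.46 to 1.97). The con to Ht call did not hold with that reference, where Cebpa was at 0.33 (adjusted p = 0.538) and the other 8 members were below 0, from -0.24 for Nr1i3 to -1.23 for Foxa2. None of these was called, although Hnf4a, at -0.97 with an adjusted p of 0.0446, missed only the threshold on fold change. Leaving out either con sample (1.47 and 1.92) or either Ht sample (1.60 and 1.76) also took the con to Ht call of Cebpa away, with differences close to that over all samples. Cebpa was at 319 to 407 CPM in F4/80+ cells and 292 to 433 CPM in CD11b+ cells, above Ht, and macrophage markers were higher in Ht than in con. From Mt to Ht, 0 of 8 macrophage markers were called (median 0.45), where 13.4% of all genes were called lower and 1.5% higher. Of 6 granulocyte markers tested, 1 was called lower in that step (median -0.84). The part of F4/80+ and CD11b+ cells in the Cebpa value of Ht was not tested.

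The members were also compared with each other, without Alb. Hnf4a took 44.8% to 55.2% of the summed CPM of the 9 members in all 11 con, L-con, Lt and Mt libraries, and Cebpa 21.7% to 34.1%. In Ht, Cebpa took 52.7% and 45.7% and Hnf4a 27.5% and 34.3%, both outside the ranges of the other tissue libraries. These shares are not corrected for length. No test was run on them.

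L-con had no second library and its ratios to con have no replicate check. Although labelled tumor-free, it held cell cycle markers at a sum of 87.3 CPM, against 8.85 to 14.1 CPM in con, and macrophage markers at 1034 CPM, against 394 to 613 CPM, and their part in its values was not tested. Foxa2 was the only member past 2-fold, at 2.40-fold of the con mean (6.08% of all genes were past 2-fold lower and 9.95% higher) and 2.99-fold relative to Alb (4.23% lower and 15.6% higher). Foxa1 was at 1.41-fold, and Cebpa, Foxa3 and Hnf4a at 1.12-fold, 1.06-fold and 0.943-fold. Nr1h4 was at 0.862-fold, Nr1i2 at 0.736-fold, Ppara at 0.556-fold and Nr1i3 at 0.513-fold, and Alb itself at 0.786-fold. Relative to Alb, Nr1h4 turned to 1.08-fold, and Nr1i2 was at 0.938-fold and Ppara at 0.692-fold. Foxa2 stayed past 2-fold against either con library alone (2.07-fold and 2.85-fold). Against the second con library alone Nr1i3 (0.379-fold) and Ppara (0.473-fold) were past it too, and against the first alone they were at 0.793-fold and 0.674-fold. Relative to Alb, Nr1i3 was at 0.440-fold and 1.10-fold of these con libraries, so that its direction turned. Foxa1 relative to Alb was at 1.76-fold of the con mean, at 2.31-fold of the first con library and at 1.42-fold of the second.

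The sorted cells served as a check on which members are expressed in F4/80+ and CD11b+ cells of the metastases. Tumor, bile duct, endothelial and stellate cells were not sorted, so expression of the members in them was not tested. In the 3 F4/80+ and 3 CD11b+ libraries Foxa1 had 0 counts in all 6. This allows up to 0.152 CPM in F4/80+ and 0.174 CPM in CD11b+ cells (3 counts in the library smallest after TMM scaling). Foxa2 had at most 1 count, Foxa3, Nr1h4, Nr1i2 and Ppara at most 3, and Nr1i3 at most 5. Hnf4a had 14, 14 and 10 counts in F4/80+ and 6, 4 and 3 in CD11b+ cells. Cebpa had 8059, 7212 and 6465 counts in F4/80+ and 6145, 6942 and 7455 in CD11b+ cells, and made up at least 99.7% of the members' summed CPM in each sorted library.

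Alb itself had 4156, 2299 and 2282 counts in F4/80+ and 921, 771 and 1610 in CD11b+ cells. The source of these Alb reads was not tested. Hnf4a gave 3.37 to 6.09 reads per 1000 Alb reads in F4/80+ and 1.86 to 6.51 in CD11b+ cells, below the 8.45 to 17.9 of the tissue. The macrophage markers summed to 19521 to 20946 CPM in F4/80+ and 17890 to 30502 CPM in CD11b+ cells, and the 7 granulocyte markers to 951 to 3475 CPM in CD11b+ against 155 to 434 CPM in F4/80+ cells. Adgre1, which encodes F4/80, was at 692 to 785 CPM in F4/80+ cells and at 508 to 547 CPM in CD11b+ cells, against 96.5 to 118 CPM in Mt2 tissue.

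Against Mt2 tissue, in a joint fit of 18407 genes, 8 of 9 members were lower in F4/80+ cells (25.2% of all genes lower, 17.2% higher) and the same 8 in CD11b+ cells (26.3% lower, 17.6% higher). Sorted and tissue libraries came from separate tables, so a difference between tables cannot be told apart from that between cells and tissue. With members at or under 3 counts in every library set to that limit, the median log2 difference was -7.97 in F4/80+ and -7.77 in CD11b+ cells, against -0.12 and -0.08 over all genes. Ppara, at 108 and 24.9 CPM in Mt2 on this scale, was at least 439-fold lower in F4/80+ and at least 382-fold lower in CD11b+ cells. Foxa3 was at least 357-fold and at least 311-fold lower. These bounds use the mean of Mt2, and against the second Mt2 library alone, a setting chosen after seeing the data, they came to 164-fold and 143-fold for Ppara and 141-fold and 123-fold for Foxa3. Hnf4a, which was above the limit in 5 of 6 libraries, was lower by 9.88 (SE 0.69, adjusted p = 1.26e-07) in F4/80+ and by 11.44 (SE 0.75, adjusted p = 5.51e-08) in CD11b+ cells. Without the first Mt2 library these differences of Hnf4a were -8.43 and -9.99.

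Cebpa was not called in either population, with 0.20 (SE 0.43, adjusted p = 0.718) in F4/80+ and 0.11 (SE 0.43, adjusted p = 0.844) in CD11b+ cells. This rested on the spread of Mt2, where Cebpa was at 510 and 119 CPM. Without the first Mt2 library Cebpa was called higher in both (1.60 and 1.51). Between the sorted populations only Hnf4a and Cebpa had counts enough to be tested, and neither was called (0.0701% of 14263 genes lower and 0.00701% higher in F4/80+). Hnf4a was 1.51 higher in F4/80+ cells (SE 0.47, adjusted p = 0.351) and Cebpa 0.03 higher (SE 0.21, adjusted p = 0.951). DESeq2 called 0 of the members there, and 1503 genes had an unadjusted p under 0.05 in edgeR.

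**Figure D4:**
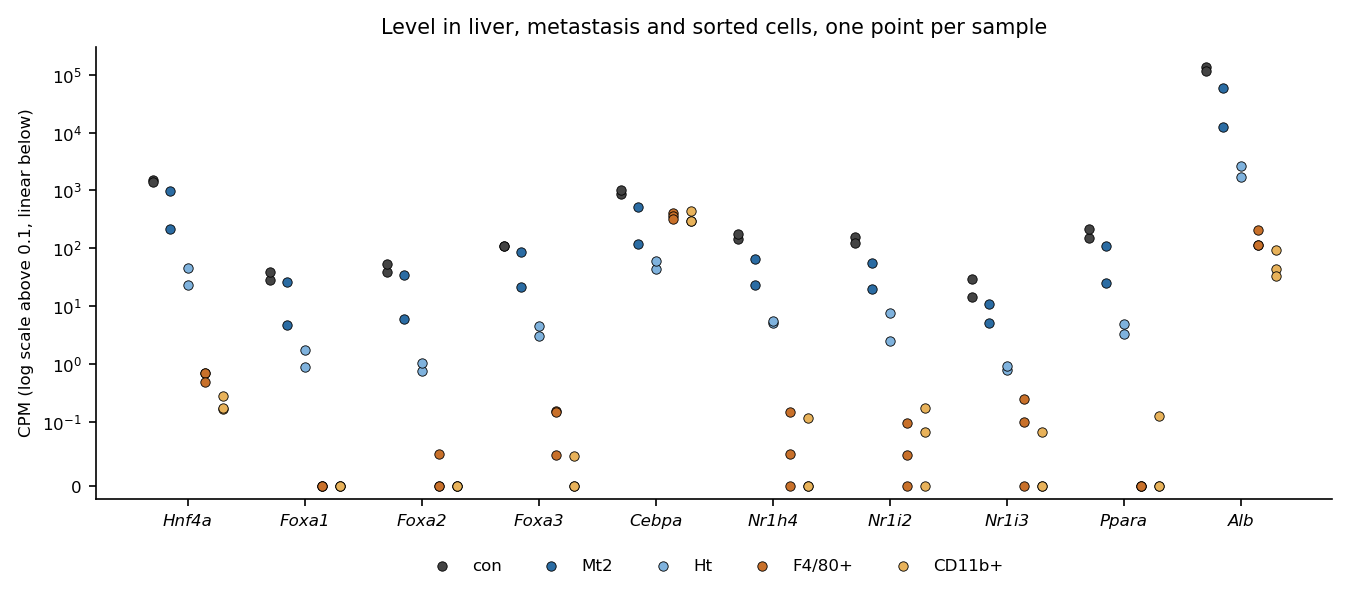
Level of each member and of Alb in CPM of the joint scaling (log scale above 0.1, linear below) in con, Mt2 and Ht tissue and in sorted F4/80+ and CD11b+ cells, with a point for each sample. Sorted cells held Cebpa at 292 to 433 CPM and the other 8 members below 1 CPM.

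The partners of the members were read beside them. Nr0b2, which encodes the FXR-induced repressor SHP, was at 33.2 to 67.3 CPM in con and 0.970 to 2.51 CPM in Ht, and fell by 4.90 (SE 1.06, adjusted p = 0.00316). Rxra was at 713 to 818 CPM in con and 93.1 to 98.4 CPM in Ht and fell by 3.0 (SE 0.54, adjusted p = 0.00116), less than any member. Relative to Alb, Rxra was 2.89 higher (SE 0.76, adjusted p = 0.000316), while Nr0b2 at 0.95 was not called.

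Cebpb, which encodes C/EBP beta, was at 144 to 220 CPM in con and 86.5 to 112 CPM in Ht, and its difference of -0.88 was not called (SE 0.64, adjusted p = 0.251). Among sorted cells Cebpb was at 610 to 1387 CPM and Rxra at 46.2 to 170 CPM. Relative to Alb, Cebpb was 5.02 higher in Ht than in con (SE 0.98, adjusted p = 3.33e-06).

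Among 46 other liver transcription factors, 34 fell and 1 rose from con to Ht (median -2.09, against -4.84 for the members and 0.09 over all genes, of which 24.1% were called lower and 25.8% higher). Mlxipl, which encodes the carbohydrate-responsive factor ChREBP, fell by 5.80 (SE 0.56, adjusted p = 0.000103) and Klf15 fell by 5.85 (SE 1.03, adjusted p = 0.00104). Cebpd did not pass the threshold on fold change at 0.83. Relative to Alb, 31 of the 46 were higher (median 3.79), where 91% of all genes were (median 5.99).

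Most genes on the lists of known targets of the members fell from con to Ht, a step in which 24.1% of all genes were called lower and the median over all genes was 0.09. Of 14 HNF4A targets, 14 fell from con to Ht (median -5.05), among them Otc of the urea cycle (-7.51, adjusted p = 0.000312) and Cyp8b1 of bile acid synthesis (-6.87, adjusted p = 0.00013), while Apoa4 fell by 2.05. Of 12 FXR targets tested of 13, 10 fell (median -4.71), among them the bile salt export pump Abcb11 (-6.03, adjusted p = 0.000753) and Slc27a5 (-6.63), and Pltp was at -0.01 (adjusted p = 0.984). Of 16 PXR and CAR targets, 14 fell (median -6.47). Cyp2b10, the classic target of CAR, had 227 and 459 counts in con and 0 in both Ht samples, at least 284-fold lower than the con mean and at least 179.8-fold lower than the lower con library (chosen after seeing the data). Ces2a fell by 8.46 and Sult1e1 was at -2.19 (adjusted p = 0.117).

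Of 21 PPARA targets, 19 fell (median -3.89, against 24.1% of all genes called lower), among them the fatty acid hydroxylase Cyp4a10 (-8.39, adjusted p = 0.000782) and Cyp4a14 (-7.89). The lipid droplet gene Plin2 fell by 1.51, and Fgf21 was at 1.28 (SE 0.92, adjusted p = 0.246). Of 8 FOXA and C/EBP targets, 7 fell (median -6.14), among them Tdo2 of tryptophan breakdown (-7.44) and the tyrosine aminotransferase Tat (-7.19), and Igfbp1 was at -1.26 (adjusted p = 0.305). With the 5 genes at or under 3 counts in both Ht samples (Apoc2, Slc51b, Cyp2b10, Cyp2b9 and Acot3) set to that limit, these medians were the same to 2 decimals. Many genes of these lists answer to several members, so the lists are not separate readouts.

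Relative to Alb, the target lists spread around the members' median of 0.97, in a step where 91% of all genes were called higher and 0.279% lower with a median of 5.99. HNF4A targets had a median of 0.77 (3 higher and 1 lower of 14) and FXR targets of 1.10 (4 higher of 12; 1.14 with Apoc2 and Slc51b at their limit). PPARA targets had a median of 2.02 (11 higher and 2 lower of 21). PXR and CAR targets had a median of -0.72 (4 higher and 3 lower of 16; -0.63 with Cyp2b10 and Cyp2b9 at their limit) and FOXA and C/EBP targets of -0.30 (1 higher and 3 lower of 8). Among the lowest of their lists, Tdo2 (-1.60, adjusted p = 0.00771) and Tat (-1.33, adjusted p = 0.0323) were lower relative to Alb in Ht. So were Cyp4a10 (-2.53, adjusted p = 0.00756) and Otc (-1.72, adjusted p = 0.0327). The highest of the same lists were called higher, with Apoa4 at 3.72, Igfbp1 at 4.66, Plin2 at 4.36 and Fgf21 at 6.97. No member was called lower relative to Alb. With the 12 other secreted genes as reference, Hnf4a was at -0.97, Foxa2 at -1.23, Ppara at -1.02 and Cebpa at 0.33, and target values are not given. Differences between targets and members were not tested.

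For each member the genes with the most similar pattern were listed by Pearson's r of log2(CPM + 1) over the 13 tissue samples, which share the gradient from liver to tumor. Hnf4a ran closest with Apoa5 (r = 0.999), Gjb1 and F2, and Foxa3 with Asgr1 (r = 0.998), F12 and Proz. Foxa1 ran with Nat8 (r = 0.992), Anks4b and Creld1, and Foxa2 with Plcxd2 (r = 0.991), Zyg11a and Foxa1 (r = 0.989). Bsdc1 (r = 0.994) and Ddc were among the 3 nearest to Cebpa, and Nr1h4 had Hist1h2bc (r = 0.996), mt-Nd2 and 4732465J04Rik. Nr1i2 ran with Gldc (r = 0.996), Gstm4 and Grb7, and Ppara with Prox1 (r = 0.996), Ces1d and Rdh16. Nr1i3 had the lowest values, with Notum (r = 0.980) and Ces1d among its 3 nearest. Prox1, the nearest to Ppara, is itself a liver transcription factor and was at 224 to 270 CPM in con and 5.44 to 5.71 CPM in Ht.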

How the data were processed

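Reads were aligned and counted by the authors with HISAT2 2.0.5 and featureCounts 1.5.0-p3 on GRCm38 (tools and build as listed in the submitters' processing notes, which also list CASAVA), and raw counts per gene were deposited in separate tables for tissue and for sorted cells. The library kit does not mark strand. Deposited counts were joined by gene identifier, with 0 columns left unmapped, and Ht replicates 1 and 3 were summed. After filterByExpr and TMM scaling, edgeR 4.0.16 (R 4.3.3) fitted 13 tissue samples in 7 groups, 19 samples in 9 groups for sorted cells against Mt2, and the 6 sorted libraries alone. Quasi-likelihood tests were adjusted by Benjamini-Hochberg and called at 0.05 with a log2 fold change of at least 1. For values relative to Alb, the Alb count was the offset. The fits were tested on simulated data. DESeq2 1.42.0, other filters, scalings, references and left-out samples were alternatives.

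Named genes were the members, Alb, the partners Rxra, Nr0b2 and Cebpb, the lowest and highest of each list and the 3 genes most like each member, of which some are not reported here. Adgre1 and the level of Prox1 were added after values were seen. Members and lists were chosen with earlier results of these data known. Floors cover counting error only. Standard errors were derived from the log2 fold change and the F statistic of each edgeR test, and include the spread between samples. Figures used matplotlib 3.10.9. Replicate numbers were taken as names only.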

Additional observations from a re-analysis of the deposited data

How the results depend on the processing

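The 9 calls from Mt to Ht and from con to Ht were kept under DESeq2, total-count scaling, no filter, at least 10 counts in every library, separate fits and Ht as 3 libraries. Total-count scaling moved the median of all genes by 0.40 (con to Lt), 0.33 (Lt to Mt), 0.55 (Mt to Ht) and 1.28 (con to Ht). The cause of the differences below was not tested unless fewer samples or genes enter by construction.

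Members called from Lt to Mt numbered 1 with DESeq2 (242 of 17187 genes called) and 4 with no filter (Foxa1, Foxa2, Cebpa, Nr1h4; 887 of 29359), and from con to Lt 1 with no filter (3146 of 29359) and 1 with only the groups compared (2070 of 14406). Relative to Alb, the con to Ht count was 2 with only the groups compared (Cebpa, Foxa3; 14743 of 15453 genes called) and 0 with 12 other secreted genes (15396 of 17187), and the Mt to Ht count was 0 with only the 1406 genes low in sorted cells, chosen after seeing the data, a set that leaves out Cebpa by construction (Foxa3 was then called from con to Ht, 1.01). With at least 10 counts in every library, 0 members were called in F4/80+ and 0 in CD11b+ cells against Mt2, since only Cebpa was tested. Leaving out 1 sample gave 0 to 4 calls from Lt to Mt, 0 to 9 from Mt to Ht, 0 to 0 relative to Alb from con to Ht, and 1 to 3 members past 2-fold in L-con (2 to 2 relative to Alb).

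The labels tie no replicate number to an animal. Deviations of same-numbered samples correlated at -0.12 between con and Lt and -0.08 between con and Ht, at 0.21 to 0.43 between Lt and the Mt groups, and at -0.27 to -0.15 between the Mt groups and Ht. With a replicate block the members called were 0, 0, 9 and 9 in the 4 steps, as without it, and no other call changed.

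Signs turned with the 12 other secreted genes as reference. From con to Lt, Hnf4a was -0.54, Foxa1 -0.16, Foxa3 -0.19, Cebpa -0.52, Nr1h4 -0.48 and Nr1i3 -0.69. From Lt to Mt, Hnf4a was -0.0518 and Nr1i2 -0.0357. From Mt to Ht, Hnf4a was -0.38, Foxa3 -0.0867 and Ppara -0.16. From con to Ht, Hnf4a was -0.97, Foxa1 -0.29, Foxa2 -1.23, Foxa3 -0.34, Nr1h4 -0.40, Nr1i2 -0.34, Nr1i3 -0.24 and Ppara -1.02. With Mt as a single group, Foxa3 relative to Alb from Lt to Mt was 0.018, and with the replicate block 0.00. With total-count scaling from con to Lt, Foxa1 was 0.11 and Foxa3 0.0801.

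Leaving out 1 sample also turned signs of uncalled values. Cebpa ran from -0.46 to 1.60 in F4/80+ and -0.56 to 1.51 in CD11b+ cells against Mt2, and -0.0713 to 0.26 between them. From con to Lt, Foxa1 ran from -0.41 to 0.073 and Foxa3 from -0.54 to 0.0939. Relative to Alb from con to Lt, Hnf4a ran from -0.10 to 0.46, Cebpa from -0.16 to 0.55, Nr1i2 from -0.26 to 0.13 and Nr1i3 from -0.47 to 0.85. From Lt to Mt, Hnf4a ran from -0.24 to 0.33, Foxa1 from -0.55 to 1e-04, Foxa3 from -0.18 to 0.20, Cebpa from -0.53 to 0.20, Nr1h4 from -0.52 to 0.0084 and Nr1i2 from -0.14 to 0.25. Foxa2 ran from -0.49 to 0.16 (Mt to Ht) and -0.18 to 0.53 (con to Ht), and Hnf4a from -0.0521 to 0.32 (Mt to Ht).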
